A study of Xiphophorus maculatus with 65 samples.

Results

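Expression of 4 immune genes, *marco*, *cd8a*, *irf9* and *siglec15*, was followed across 65 RNA-Seq libraries of skin and liver of the platyfish *Xiphophorus maculatus* strains JpB and JpA. The genes were chosen by symbol in the NCBI annotation. They are 4 of 27242 gene models, each with 1 row of counts. *marco*, *cd8a* and *siglec15* were picked with their strain difference in skin in view, and which earlier result brought in *irf9* is not recorded, so that every skin strain difference given for these 4 genes is a description without a test. On assembly X_maculatus-5.0-male, *marco* (gene 102231894) lies on chromosome 7 from 207998 to 223982, *cd8a* (gene 102231708) on chromosome 20 from 29639947 to 29647961, *irf9* (gene 102232232) on chromosome 21 from 23806683 to 23816363, and *siglec15* (gene 102221190) on chromosome 3 from 638229 to 659059. All but *cd8a*, which has 2, are annotated with 1 transcript.

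The 4 genes belong to different arms of immunity. In mammals, *MARCO* encodes a class A scavenger receptor of macrophages that binds bacteria and particles. *CD8A* encodes a chain of the co-receptor with which cytotoxic T cells recognise peptides on MHC class I. *IRF9* encodes the DNA-binding subunit of ISGF3, the complex that forms after type I interferon binds its receptor and switches on antiviral genes. *SIGLEC15* encodes a sialic-acid-binding lectin that signals through the adaptor encoded by *TYROBP*. It is best known from osteoclasts, the bone-resorbing cells of the monocyte lineage, and from macrophages, where it can restrain T cells. Roles are given from mammals throughout, since none was measured in this fish.

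All fish were males of 2 inbred lines whose founders were siblings, and no label names a treatment other than the control words given below. The JpB skins came from fish of 9 to 12 months, and are grouped by label year, the year in the date of the sample name, written here as label-2012 (1 sample), label-2014 (11), label-2015 (6), label-2016 (4) and label-2018 (4). The JpA skins came from 13-month label-2018 fish (4 samples) and from 20-month (5) and 24-month (16) label-2016 fish. The 4 JpB livers came from 9-month label-2018 fish. The JpA livers came from 20-month label-2016 fish (4) and 13-month label-2018 fish (2). JpA livers 3 and 4 have fish labels that differ only by the suffix -r. They were kept as separate fish, though they may come from 1 fish. The labels carry 0min, 0pt or sham as control words in both strains, UV-0KJ, UVB-Sham-0kJ or CO-0min in JpB skin alone, and an hour of sacrifice in the 24-month JpA skins alone. The ages of the strains do not overlap and no label date holds both, so strain, age and date cannot be told apart across the whole set. Of the 30 JpB skin libraries, 4 pairs with 1 fish label each had a chi-square over its degrees of freedom of 2.01 to 2.78. Counting noise alone gives about 1. These pairs were summed, which left 26 JpB skin samples from 23 fish labels, and 25 JpA skin samples. The 5 JpA skins of 20 months came from 3 fish labels.

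Libraries held 26843901 to 98104664 counts (median 47222863). Levels are given as CPM, counts per 1000000 counts of the library. Hepatocyte genes (8 matched) summed to 39778 to 42482 CPM in JpB livers and 38592 to 52858 CPM in JpA livers, against at most 165 CPM in any skin. Epidermal and mucous cell genes (9 matched) summed to at most 488 CPM in any liver and at least 2320 CPM in every skin, so the tissue labels fitted these markers. JpA livers 5 and 6 have JpB in their titles but JpA as strain, which was used. Some libraries stood apart. JpA liver 2 was high in genes of all leukocyte classes. JpB skin 3 had the highest *cd8a* and *marco* and the lowest *irf9* of all JpB skins, and differed from 3 other libraries with its fish label (chi-square over its degrees of freedom 485 to 555, and at most 13.8 among those 3). JpB skins 11 and 12 were high in muscle genes (11 matched, chosen after the values were known), which summed to 8720 and 8275 CPM there and to 513 to 3553 CPM in the other skins. Values without them are given where they matter. The tissue is bulk, so fewer cells of a type and less RNA per cell cannot be told apart. Fold changes are log2 values from edgeR's quasi-likelihood test, scaled by TMM (the trimmed mean of M-values, which balances libraries on the bulk of their genes), and a gene was called at a Benjamini-Hochberg adjusted p under 0.05 over all genes tested. Samples with 1 fish label were kept as separate samples, and the comparisons share samples with each other, so they are no independent evidence.

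*siglec15* had the largest skin strain difference of the 4 genes. It ranged from 0.316 CPM over a median of 1.33 to 8.82 CPM in JpB skin, and from 0.514 over a median of 4.35 to 26.2 CPM in JpA skin. The groups overlapped, but 25 of 26 JpB samples lay below the JpA median and 4 lay below every JpA sample. The log2 fold change of JpB over JpA was -1.78 (SE 0.33, n = 26 and 25). Without JpB skins 11 and 12, which had the highest JpB values at 3.73 and 8.82 CPM, it was -2.22.

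*marco* was the gene of the 4 with higher levels in JpB skin. Its lowest, median and highest levels were 14.6, 25.8 and 54.5 CPM in JpB skin and 8.61, 18.0 and 34.2 CPM in JpA skin. A single JpB sample lay below the JpA median, and 6 lay above every JpA sample. The log2 fold change was 0.63 (SE 0.13).

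*cd8a* and *irf9* were lower in JpB skin. *cd8a* had 4.25, 7.81 and 23.5 CPM as lowest, median and highest level in JpB skin, and 6.11, 11.2 and 20.2 CPM in JpA skin. The highest of all 51 values was JpB skin 3, while the other 25 JpB samples all lay below the JpA median and 9 lay below every JpA sample. *irf9* had 14.9, 26.7 and 43.2 CPM in JpB skin, and 18.5, 40.9 and 65.9 CPM in JpA skin. Here 24 of 26 JpB samples lay below the JpA median and 3 below every JpA sample. The log2 fold changes were -0.60 (SE 0.15) for *cd8a* and -0.47 (SE 0.11) for *irf9*. In this comparison 25.4% of all genes tested were called in either direction. Since this contrast chose the genes, nothing is read from their place among them.

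**Figure D1:**
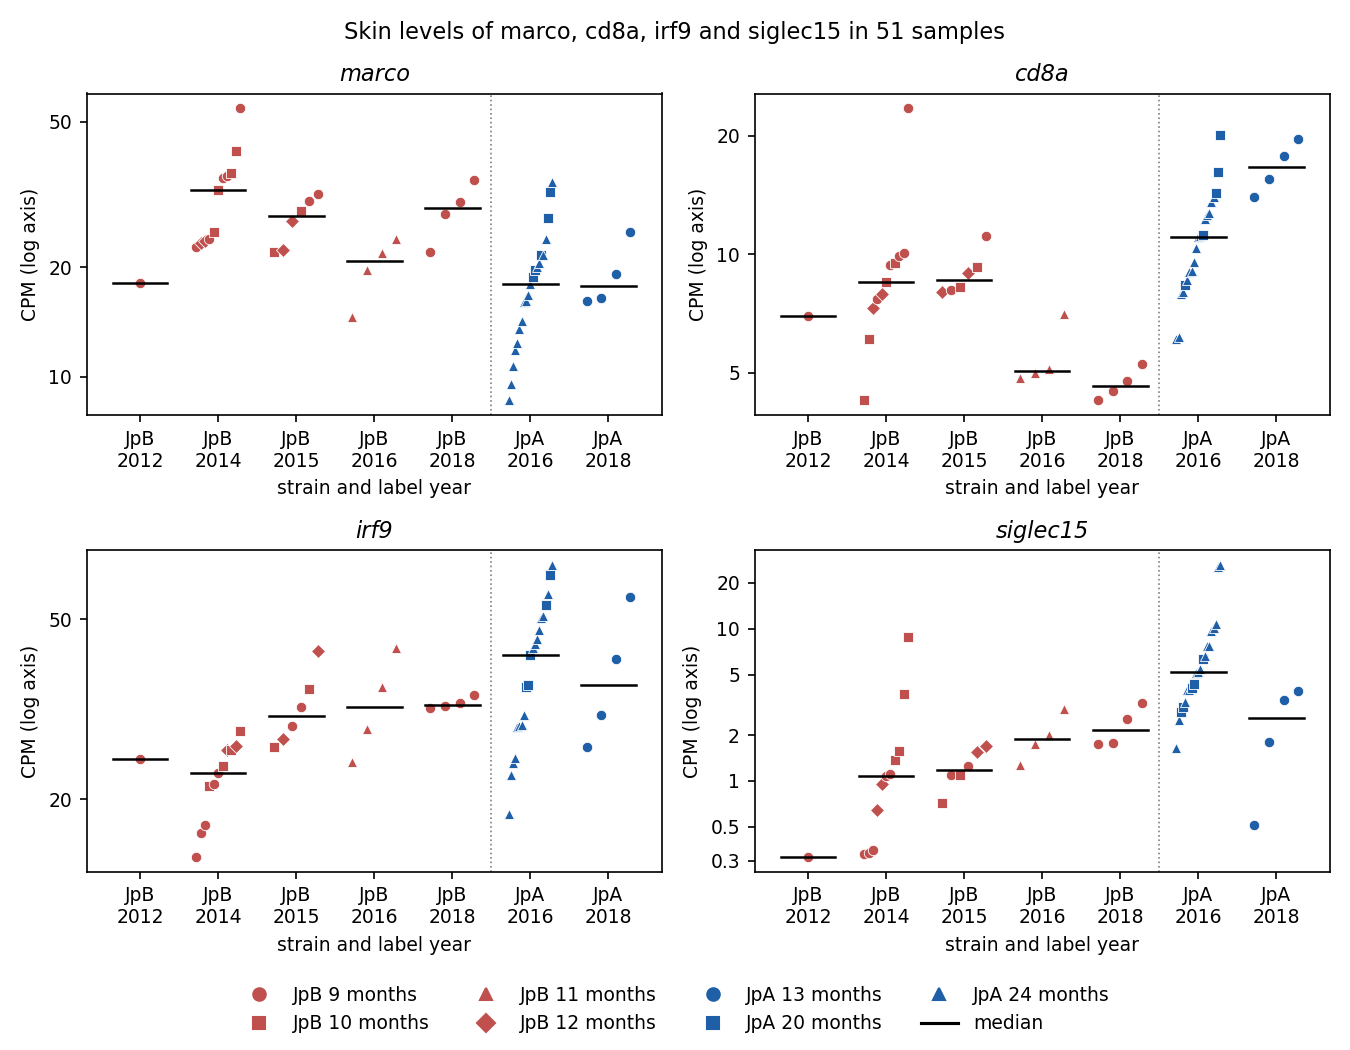
Each point is 1 of 51 skin samples, in CPM on a log axis, by strain (JpB red, JpA blue) and label year, with age as the symbol and a line at the median. *cd8a* in JpB skin had medians of 8.48, 8.61, 5.04 and 4.63 CPM in label-2014, label-2015, label-2016 and label-2018, and all JpA samples of label-2018 lay between 14.0 and 19.7 CPM.

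Both strains are present in label-2018 and label-2016 skin, and the difference of *cd8a* was larger within them than over all years. In label-2018, *cd8a* had 4.49, 5.28, 4.76 and 4.25 CPM in the 4 JpB skins, against 17.8, 14.0, 19.7 and 15.5 CPM in the 4 JpA skins. These groups did not overlap, which held for 25.5% of all genes tested, and the log2 fold change was -2.02 (SE 0.19). In label-2016, *cd8a* had 4.98, 7.05, 5.11 and 4.84 CPM in JpB skin and 6.11 to 20.2 CPM in the 21 JpA skins (log2 fold change -1.03, SE 0.27). A fit over both years with label year as covariate gave -1.37. Of all genes tested, 12.8% were called in label-2018 and 3.84% in label-2016. These years use samples of the contrast that chose the genes, so no test is given here either.

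The other 3 genes overlapped between the strains within both years. *marco* in label-2018 had 30.1, 34.7, 27.9 and 22.0 CPM in JpB skin and 16.1, 16.4, 19.1 and 25.0 CPM in JpA skin, so that 3 JpB samples lay above every JpA sample. In label-2016 its JpB levels of 14.6 to 23.9 CPM lay inside the JpA range, and the log2 fold change of 0.10 (SE 0.28) was smaller than its SE. *siglec15* in label-2016 had 1.28, 2.02, 2.98 and 1.76 CPM in JpB skin, all below the JpA median of 5.17 CPM (log2 fold change -1.86, SE 0.58). In label-2018 it had 2.55, 3.23, 1.77 and 1.74 CPM in JpB skin and 1.80, 3.42, 3.88 and 0.514 CPM in JpA skin, with a log2 fold change of -0.26 (SE 0.55) that became 0.18 without JpA skin 3. *irf9* had 31.8 to 34.1 CPM in JpB skin and 30.7, 26.2, 40.9 and 55.9 CPM in JpA skin in label-2018, a narrow range inside a wide one.

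Genes of T cells were read beside *cd8a*, since its product marks the cytotoxic class of them. Of the 13 other T cell genes tested in skin, edgeR's quasi-likelihood test called 0 over all years, in label-2018 and in label-2016. It called 25.4%, 12.8% and 3.84% of all genes. At an unadjusted p under 0.05 were 2, 2 and 1 of the 13, beside 37.8%, 31.9% and 23.2% of all genes. DESeq2 called 0, 0 and 1 of these 13 genes. Their median log2 fold change was 0.02, 0.13 and -0.06 in that order, beside 0.02, -0.0044 and -0.05 for all genes. *cd3e*, part of the T cell receptor complex, had a log2 fold change of -0.11 (SE 0.16) over all years. The other 13 T cell genes summed to 544 to 608 CPM in JpB skin and 308 to 535 CPM in JpA skin in label-2018, so that every JpB sum lay above every JpA sum. A ratio formed after the values were seen, *cd8a* over the sum of *cd3e*, *lck* and *itk* counts, was 0.0848 to 0.0960 in JpB skin and 0.270 to 0.617 in JpA skin in label-2018. In label-2016 it was 0.102 to 0.171 in JpB skin and 0.123 to 0.876 in JpA skin, with overlap. Over all years it overlapped too, at 0.0848 to 0.4685 in JpB skin and 0.123 to 0.876 in JpA skin. Without JpB skin 3, or without JpB skins 11 and 12, 1 of the 13 was called, higher in JpB, beside 24.1% and 31.6% of all genes called. Of 8 pan-leukocyte genes edgeR called 1 in label-2018, *cxcr4*, lower in JpB skin (-1.84, SE 0.21, adjusted p = 0.00177), beside 12.8% of all genes. The median of the 8 there was 0.07. Over all years and in label-2016 edgeR called 0 of the 8, beside 25.4% and 3.84% of all genes. Liver genes also moved with the strain comparison. In label-2018, 6 of 8 hepatocyte genes were called higher in JpB skin, beside 6.31% of all genes called higher. The list summed to 111 to 165 CPM in JpB skin and 73.4 to 100.5 CPM in JpA skin. Their part in the *cd8a* difference was not tested.

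**Figure D2:**
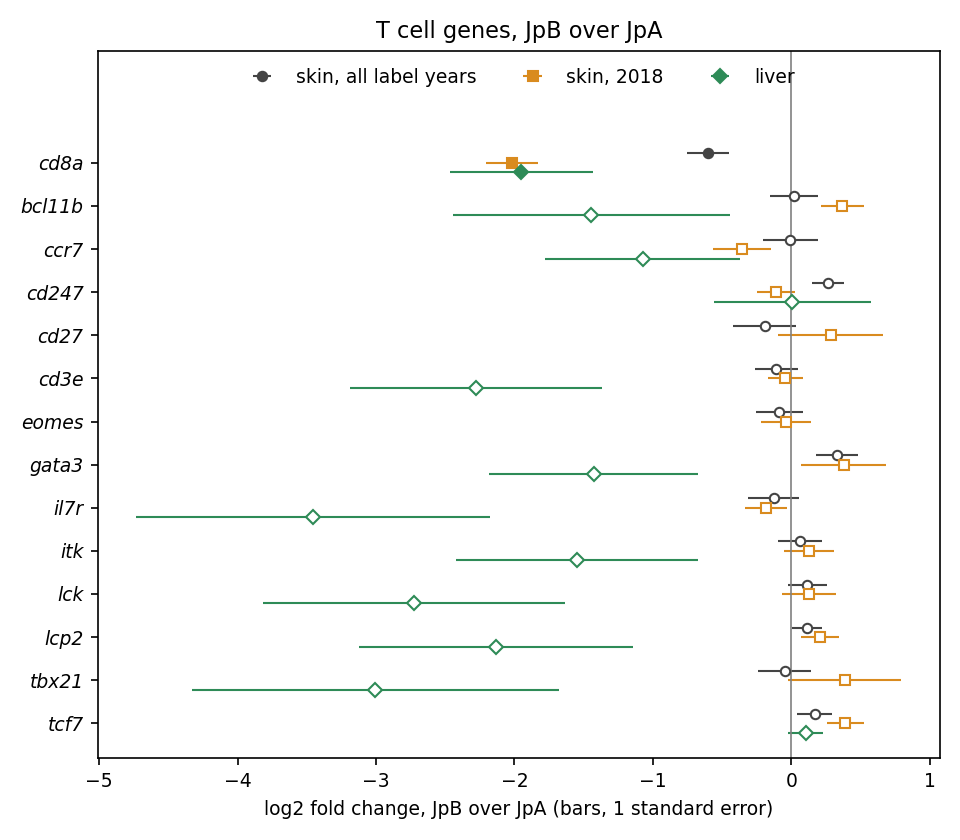
Log2 fold change of JpB over JpA (bars, 1 SE) for 14 T cell genes in skin over all label years, in skin of label-2018 and in liver. Symbols are filled for *cd8a* and open for the other genes. The value of *cd8a* in skin of label-2018 (-2.02) lies apart from the other T cell genes, and its values in skin are descriptions because that contrast chose it.

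Among the 6 scavenger receptor genes tested other than *marco*, 3 were called higher in JpB skin over all years by edgeR's quasi-likelihood test, beside 13.2% of all genes called higher, and their median log2 fold change was 0.33. *stab2*, which clears hyaluronan and other ligands, had 0.35 (adjusted p = 0.0106), *scara5*, a ferritin receptor, 0.48 (adjusted p = 0.0336) and *scarb1*, the HDL receptor, 0.24 (adjusted p = 0.0348). In label-2018, 3 of the 6 were called higher in JpB skin, *scara5*, *scara3* and *stab1*, beside 6.31% of all genes. In label-2016 edgeR called 0 of the 6, beside 3.84% of all genes, and DESeq2 called 1. At an unadjusted p under 0.05 were 2, in opposite directions (*stab1* at 0.67 and *colec12* at -0.72), beside 23.2% of all genes. The median of the 6 was 0.02. The 13 mononuclear phagocyte genes tested other than *marco* had a median log2 fold change of 0.09 over all years. They summed to 1152 to 4306 CPM in JpB skin and 1208 to 4372 CPM in JpA skin.

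Of 12 genes tested in the list of Siglec-15 signaling and osteoclasts other than *siglec15*, 3 were called over all years, each lower in JpB skin, beside 12.3% of all genes called lower. These were *ocstamp*, needed for osteoclast fusion (log2 fold change -1.28, adjusted p = 0.00198, edgeR), *acp5*, the tartrate-resistant acid phosphatase of osteoclasts (-0.79, adjusted p = 0.00264, edgeR) and *tyrobp*, the adaptor gene (-0.70, adjusted p = 0.0116, edgeR). The median of the 12 was -0.06. Without JpB skins 11 and 12, the list with *siglec15* kept in it had 5 genes called lower and 1 higher. In that fit 31.6% of all genes were called in either direction. Since this contrast chose *siglec15*, its own place in that count is no evidence. *acp5*, whose level moved with *siglec15* over the same skins (given below), is no independent evidence either. Within a year edgeR called 0 of 12 in label-2018 and 0 of 13 in label-2016, beside 12.8% and 3.84% of all genes. At an unadjusted p under 0.05 were 2 and 4, beside 31.9% and 23.2% of all genes. DESeq2 called 2 and 1.

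*acp5* was also the gene whose level moved most like *siglec15* among 9001 genes with a symbol and at least 1 CPM in skin. After the mean of each of 7 strain and year groups was subtracted, Pearson's r of their log2 CPM was 0.90 over 51 samples (0.90 uncentred). *shtn1* (0.88) and *mme* (0.80), a membrane metallopeptidase, came next, followed by *eif3l* (0.74) and *pfdn2* (0.73). *acp5* had 22.5, 43.7 and 142 CPM as lowest, median and highest level in JpB skin and 28.9, 65.3 and 285 CPM in JpA skin. The 2 JpA samples with the most *siglec15*, skin 6 at 26.2 CPM and skin 11 at 25.5 CPM, had 285 and 231 CPM of *acp5*. JpB skin 12, highest in JpB at 8.82 CPM of *siglec15*, had 142 CPM of *acp5*, the highest JpB value.

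**Figure D3:**
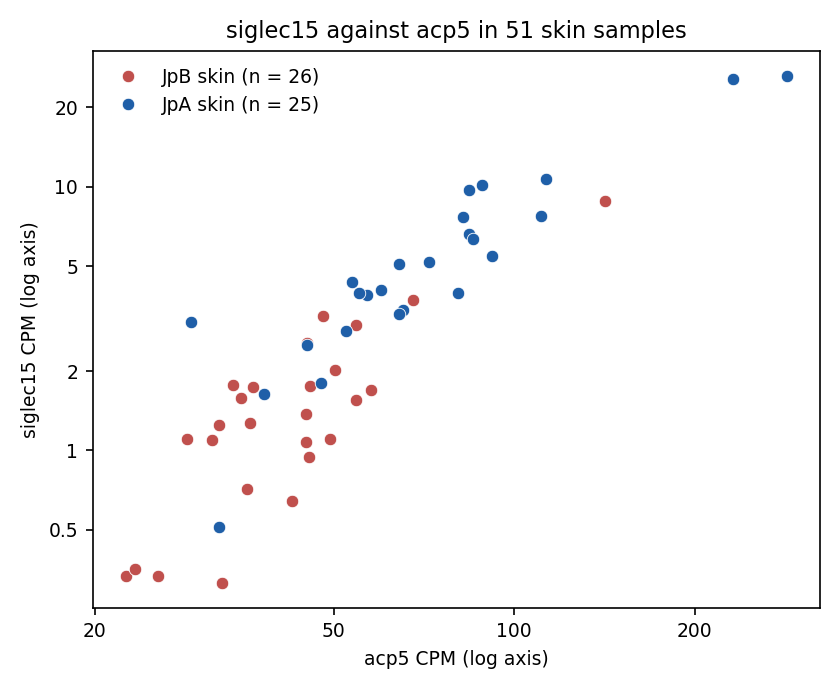
Each point is 1 of 51 skin samples, with *acp5* on the x axis and *siglec15* on the y axis, both in CPM on log axes, JpB red and JpA blue. The points of both strains rise together from 0.316 CPM of *siglec15* in a JpB sample to 26.2 CPM in a JpA sample.

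For *irf9*, the genes with the most similar levels were *socs1*, a feedback inhibitor of JAK-STAT signaling (centred r = 0.77), *dhx58*, a regulator of RNA sensing (0.72), *stat3* (0.68), *nampt* (0.65) and *glmp* (0.64). JpA skin 6, highest in *irf9* at 65.9 CPM, was highest in *socs1* too at 46.5 CPM. Of 18 interferon pathway genes tested other than *irf9*, 3 were called lower and 2 higher in JpB skin over all years by edgeR's quasi-likelihood test, beside 25.4% of all genes called in either direction. *dhx58* (-0.73, adjusted p = 0.00133) and *cmpk2* (-0.54, adjusted p = 0.00559) were among the lower genes and *mx1*, an antiviral GTPase (0.74, adjusted p = 0.00591), among the higher. *irf9* may have been picked by this contrast, and *dhx58* moved with it over the same skins, so *dhx58* is no independent evidence. The median of the 18 was 0.02. Within label-2018 and within label-2016 edgeR called 0 of the 18, beside 12.8% and 3.84% of all genes. At an unadjusted p under 0.05 were 4 in each year, beside 31.9% and 23.2% of all genes. DESeq2 called 1 and 2.

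*cd8a* moved most like *il16*, which encodes a lymphocyte attractant (centred r = 0.66), then *cilp2* (0.61), *prickle1* (0.61), *nudt3* (0.60) and *eppk1* (0.60). *cilp2* had an uncentred r of 0.07. *marco* moved most like *hmox1*, the haem oxygenase gene (0.66), then *npm3* (0.64), *cldn5* (0.64), *bag2* (0.63) and *slc6a3* (0.62). Between the 4 genes themselves, centred r was 0.40 for *marco* and *cd8a*, -0.40 for *cd8a* and *siglec15*, and between -0.18 and 0.15 for the other pairs. These correlations are descriptions over samples that share fish, dates and depth.

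Age was compared within each strain. In JpA skin, *cd8a* had medians of 16.7, 14.3 and 9.98 CPM at 13, 20 and 24 months, *marco* 17.7, 21.5 and 16.1 CPM, *irf9* 35.8, 41.7 and 36.9 CPM, and *siglec15* 2.61, 4.06 and 6.04 CPM. At 24 months all 16 *cd8a* samples, from 6.11 to 14.0 CPM, lay below the 20-month median, while the 20-month samples had 16.2, 11.2, 8.34, 14.3 and 20.2 CPM, so the groups overlapped. *siglec15* at 24 months ran from 1.64 to 26.2 CPM, against 4.35, 6.35, 4.06, 2.83 and 3.06 CPM at 20 months, and 8 of 16 samples lay above every 20-month sample.

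None of these age differences passed the test. For 24 against 20 months, edgeR's quasi-likelihood test gave *cd8a* a log2 fold change of -0.50 (SE 0.21, adjusted p = 0.244), *marco* -0.53 (SE 0.24, adjusted p = 0.261), *siglec15* 0.97 (SE 0.51, adjusted p = 0.362) and *irf9* -0.30 (adjusted p = 0.560). Thus 0 of 4 were called, beside 1.71% of all genes, with 2 of 4 (*cd8a* and *marco*) at an unadjusted p under 0.05, beside 16% of all genes, and 0 of 4 by DESeq2. For 20 against 13 months, 0 of 4 were called by edgeR or DESeq2 and 0 had an unadjusted p under 0.05, beside 1.28% of all genes called, with log2 fold changes from -0.42 (*cd8a*) to 0.58 (*siglec15*). The 13-month fish carry label-2018 and the older fish label-2016, so age and year cannot be told apart there. The 20-month skins, marked sham or 0pt, and the 24-month skins, marked with an hour, carry different label dates. Between these, age cannot be told apart from date, condition word and hour. In JpB skin of label-2014 and label-2015, the 12-month samples (n = 4) had medians of 23.5 CPM for *marco*, 7.97 for *cd8a*, 26.7 for *irf9* and 1.25 for *siglec15*, against 31.8, 9.28, 23.7 and 1.10 CPM in 9 to 10-month samples (n = 13). Again 0 of 4 were called by edgeR or DESeq2 and 0 had an unadjusted p under 0.05, beside 2.7% of all genes called. The log2 fold change of *siglec15*, -0.35, became 0.30 without JpB skins 11 and 12.

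Label year was tested within JpB skin, over label-2014, label-2015, label-2016 and label-2018. *cd8a* had medians of 8.48, 8.61, 5.04 and 4.63 CPM in that order, *marco* 32.6, 27.6, 20.8 and 29.0 CPM, *irf9* 22.9, 30.5, 32.0 and 32.4 CPM, and *siglec15* 1.08, 1.17, 1.89 and 2.16 CPM. By edgeR's quasi-likelihood test over the 4 years, *cd8a* (largest log2 difference between years 1.06, adjusted p = 0.00441) and *marco* (0.80, adjusted p = 0.0261) were called, 2 of 4 genes beside 28.6% of all genes, while *irf9* (0.45, adjusted p = 0.0581) and *siglec15* (0.91, adjusted p = 0.639) were not. DESeq2 did call *irf9* on the same samples. Without JpB skins 11 and 12, *irf9* at 0.54 (adjusted p = 0.0118, edgeR) and *siglec15* at 1.37 (adjusted p = 0.0122, edgeR) were called too. The share of all genes called in that fit is not given, so nothing is read from the number of these genes called. In the skin strain comparison over all years, leaving both samples out raised the share called from 25.4% to 31.6%. Without JpB skin 3, *cd8a* (0.92, adjusted p = 0.000255, edgeR) and *marco* (0.72, adjusted p = 0.0270, edgeR) stayed called. *tcf7* and *eomes* were the other T cell genes of 14 called between years. Age, condition word and year move together in JpB and cannot be told apart. For *siglec15* in label-2014, the 5 samples of 9 months, from 2 fish labels and all marked UV-0KJ, had 0.333 to 1.11 CPM, and the 4 samples of 10 months, labelled 0min, had 1.38 to 8.82 CPM. Of the latter, JpB skins 11 and 12, high in muscle genes, had 3.73 and 8.82 CPM, and JpB skins 13 and 14 had 1.38 and 1.58 CPM. The sample of label-2012, outside the fit, had 18.1 CPM of *marco*, 6.96 of *cd8a*, 24.6 of *irf9* and 0.316 of *siglec15*, the lowest of all skins.

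Between label-2018 and label-2016 in JpB skin, *marco* had 30.1, 34.7, 27.9 and 22.0 CPM in label-2018 and 21.9, 19.7, 23.9 and 14.6 CPM in label-2016. The groups overlapped, and the log2 fold change was 0.55 (SE 0.24, adjusted p = 0.136, edgeR). Of the 4 genes 0 were called by edgeR or DESeq2, beside 9.2% of all genes, and *marco* alone had an unadjusted p under 0.05, as had 26% of all genes. *cd8a* differed by -0.19 and *irf9* by 0.02.

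The hour of the day was covered by 16 skins of 24-month JpA fish, 2 at each of 8 hours. *irf9* had 43.1 and 50.2 CPM at hour 2, 24.6 and 65.9 at hour 5, 50.9 and 56.8 at hour 8, 24.0 and 22.7 at hour 11, 44.1 and 30.7 at hour 14, 29.2 and 18.5 at hour 17, 47.3 and 45.2 at hour 20, and 29.1 and 28.9 at hour 23. Hours of higher and lower levels alternated in the main, but hour 5 held both a low value and the highest of all 16. The 8 samples of hours 2, 8, 14 and 20 had 30.7 to 56.8 CPM (median 46.2), and the 8 of hours 5, 11, 17 and 23 had 18.5 to 65.9 CPM (median 26.8), a split seen in the values and given without a test. The fish of these hour sets also carry different kinds of fish label, 1 letter in the first set and 2 letters in the second, so hour set and fish set cannot be told apart. *siglec15* had its highest values in the second set, 26.2 CPM in 1 fish at hour 5 and 25.5 CPM in 1 at hour 23, while the other fish of those hours had 5.47 and 6.61 CPM. For a 24 h cosine curve, edgeR's quasi-likelihood test gave amplitudes of 0.25 to 0.42 on the log2 scale, beside a median of 0.26 over all genes, with adjusted p = 0.337 for *cd8a*, 0.475 for *irf9*, 0.630 for *marco* and 0.667 for *siglec15*. Thus 0 of 4 were called, beside 2.12% of all genes, with 0 of 4 at an unadjusted p under 0.05 and 0 of 4 by DESeq2.

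**Figure D4:**
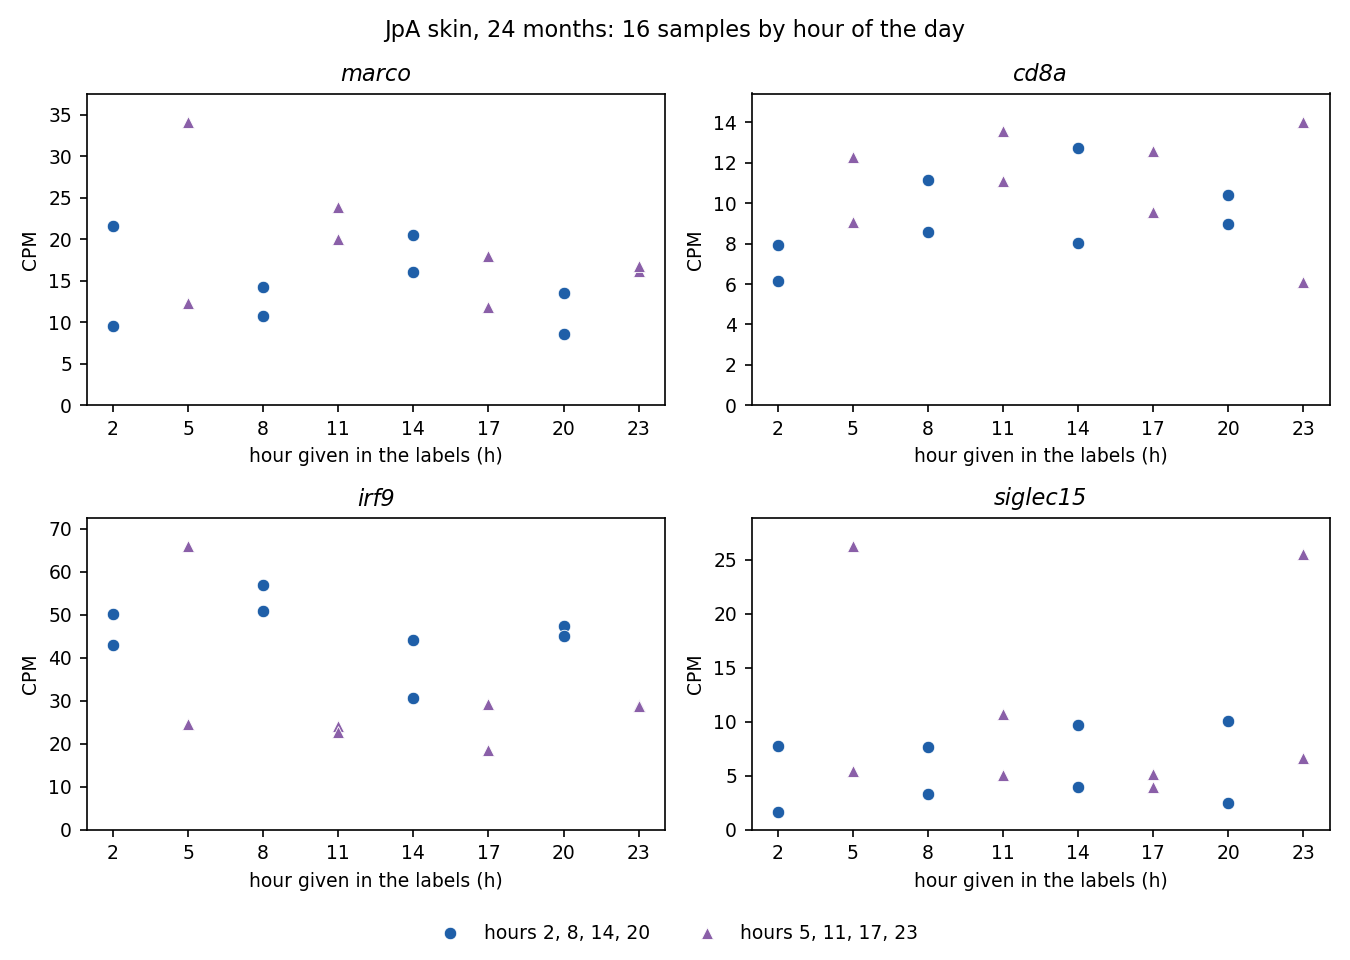
Each point is 1 of 16 JpA skin samples of 24-month fish, in CPM by the hour of sacrifice in the labels, with circles for hours 2, 8, 14 and 20 and triangles for hours 5, 11, 17 and 23. *irf9* lies between 30.7 and 56.8 CPM in the circles and, apart from 1 sample at 65.9 CPM, between 18.5 and 29.2 CPM in the triangles.

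In liver, *cd8a* was lower in JpB. JpB livers 2 and 4 and JpA livers 1 to 3 share fish labels with skins of the contrast that chose the genes. The livers are therefore no independent evidence. It had 0.061, 0.285, 0.298 and 0.143 CPM in JpB livers 1 to 4 (6 to 27 counts), against 0.663, 2.75, 0.917, 1.20, 0.530 and 0.588 CPM in JpA livers 1 to 6 (20 to 82 counts). The groups did not overlap, which held for 17% of all genes tested. The log2 fold change was -1.95 (SE 0.52, adjusted p = 0.0408, edgeR's quasi-likelihood test). Of 2 genes open to this test, *cd8a* and *marco*, 1 was called, beside 8.85% of all genes. The call was near its threshold. It was lost without any 1 of the 4 JpB livers or of JpA livers 3, 4 and 6 (log2 fold changes from -2.29 to -1.64 over all 10 livers left out in turn, adjusted p from 0.0396 to 0.122, edgeR), and within label-2018 it was -1.39 (adjusted p = 0.122, edgeR). It held without JpA livers 5 and 6, whose titles name JpB (-2.19, adjusted p = 0.0455, edgeR), and without JpA liver 2 (-1.69, adjusted p = 0.0396, edgeR). *cd8a* was the only T cell gene of 12 tested that was called, but the list's median was -1.75, beside -0.08 for all genes, and -0.43 without JpA liver 2.

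*marco* and *irf9* turned on JpA liver 2. *marco* had 0.942, 0.179, 1.25 and 0.548 CPM in JpB livers, against 3.94, 44.1, 0.826, 1.78, 1.42 and 0.788 CPM in JpA livers. The log2 fold change was -2.80 (SE 1.09, adjusted p = 0.115, edgeR), and -1.01 (adjusted p = 0.222, edgeR) without JpA liver 2. *irf9* had 7.69, 3.40, 6.82 and 4.22 CPM in JpB livers, against 8.62, 32.7, 7.55, 5.40, 5.30 and 4.75 CPM in JpA livers, and its log2 fold change of -0.39 (SE 0.39) became 0.05 without JpA liver 2. It is a description, as in skin. *siglec15* was close to the limit of detection, with 8, 6, 9 and 2 counts in JpB livers and 0, 4, 3, 0, 11 and 3 counts in JpA livers, and did not pass the filter on low counts. The 2 livers with 0 counts allow up to 0.0995 CPM (JpA liver 1) and 0.0875 CPM (JpA liver 4), taking 3 counts as the limit, which covers counting error only. That limit lies within the range of the other livers, 0.024 to 0.142 CPM.

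JpA liver 2 was high in leukocyte genes of all kinds. Its 8 pan-leukocyte genes summed to 527 CPM, against 8.60 to 17.6 CPM in JpB livers and 14.8 to 39.2 CPM in the other JpA livers. All 14 T cell genes, all 8 pan-leukocyte genes, all 7 B cell genes, 12 of 14 phagocyte genes, 7 of 8 granulocyte genes and 16 of 19 interferon genes were above every other liver, and 1 of 8 hepatocyte genes was. So were 12 of 14 genes of the osteoclast list, 5 of 8 scavenger receptor genes and 6 of 9 epidermal and mucous cell genes. The share over all genes was not taken. The lists were used here with the 4 genes kept in them, so *cd8a*, *marco* and *irf9* count among these genes. The median fold over the median of the other 9 livers was 22.4 for T cell genes, 22.6 for pan-leukocyte genes and 4.09 for interferon genes. For epidermal and mucous cell genes it was 1.98. *ptprc*, the common leukocyte antigen CD45, had 162 CPM there and 2.67 to 15.1 CPM in the other livers. The part of these genes in the values of *marco*, *cd8a* and *irf9* in that liver was not tested.

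**Figure D5:**
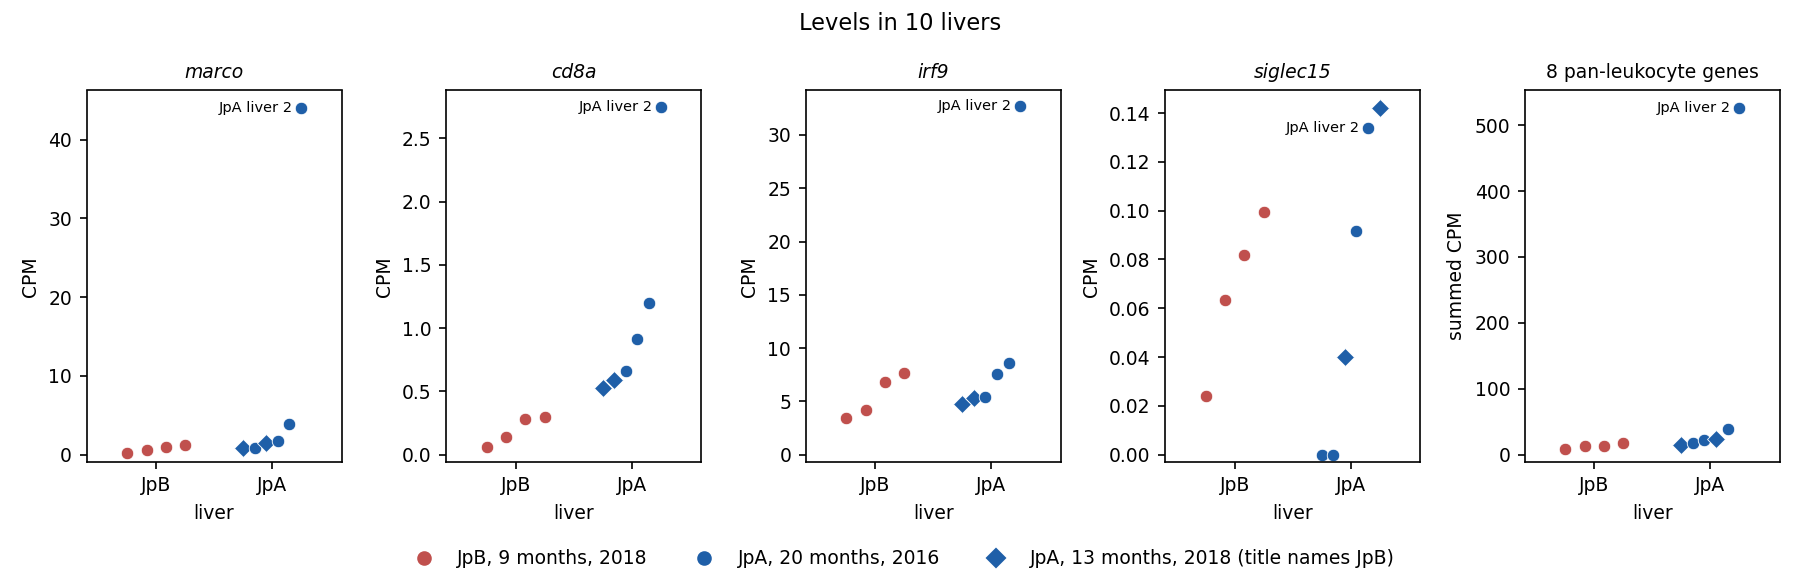
Each point is 1 of 10 livers, in CPM for the 4 genes and in summed CPM for 8 pan-leukocyte genes, JpB red and JpA blue, with diamonds for JpA livers 5 and 6, whose titles name JpB. JpA liver 2 is highest for *marco* (44.1 CPM), *cd8a* (2.75 CPM), *irf9* (32.7 CPM) and the pan-leukocyte sum (527 CPM), but not for *siglec15*.

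Liver was set against skin at 1 age in each strain. By share of all counts, *siglec15*, *cd8a* and *irf9* were lower in every liver than in every skin compared. On that scale most genes had a negative log2 fold change of liver over skin, but their overlap was not counted. The 20 most abundant genes took 25.5 to 35.9% of JpA liver counts and 8.55 to 13.4% of JpA skin counts (37.2 to 40.5% and 12.3 to 15.0% in JpB). In plain CPM the median log2 fold change of all genes was -2.49 in JpB and -1.76 in JpA, against -0.29 and -0.16 with TMM. *irf9* lay near those plain medians, at -2.56 in JpB and -1.76 in JpA.

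In JpB at 9 months, 3 of 4 genes were called lower in liver by edgeR's quasi-likelihood test, *marco* (log2 fold change -3.14, SE 0.39, adjusted p = 1.91e-05), *siglec15* (-2.91, SE 0.41, adjusted p = 5.21e-05) and *cd8a* (-2.37, SE 0.40, adjusted p = 0.000199), beside 83.4% of all genes called in either direction. None of the 3 overlapped between tissues in TMM-scaled CPM, as was so for 80.3% of all genes. JpB livers 2 and 4 share fish labels with JpB skins 31 and 32, and the fit held no term for fish. *irf9* had 16.0, 8.12, 13.5 and 9.10 TMM-scaled CPM in liver and 15.4, 15.5, 14.8 and 15.2 in skin, which overlap (log2 fold change -0.38, SE 0.19, adjusted p = 0.0837, edgeR). Without JpB liver 1 it was -0.59 (adjusted p = 0.00711, edgeR). All 14 T cell genes and all 8 pan-leukocyte genes were called lower in JpB liver, beside 47% of all genes called lower, with a median of -3.84 for the T cell list.

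In JpA at 20 months, 2 of 4 genes were called lower in liver, *siglec15* (-4.62, SE 0.73, adjusted p = 0.000318, edgeR) and *cd8a* (-1.81, SE 0.38, adjusted p = 0.00205, edgeR), beside 56% of all genes called. For both, livers and skins did not overlap in TMM-scaled CPM, as for 49% of all genes. *marco* had 8.24, 59.9, 1.67 and 3.93 TMM-scaled CPM in liver and 12.5, 17.1, 12.0, 11.6 and 18.6 in skin, so that 3 livers lay below every skin and JpA liver 2 above them all. Its log2 fold change of 0.37 (SE 0.82, adjusted p = 0.727, edgeR) turned to -1.60 (adjusted p = 0.0101, edgeR) without JpA liver 2 and to -0.48 within the 3 fish sampled for both tissues. In plain CPM it was -0.92, above the median of all genes on that scale. *irf9* was at -0.29 (SE 0.37, adjusted p = 0.534, edgeR) and at -0.82 (adjusted p = 0.0157, edgeR) without JpA liver 2. Of 14 T cell genes, 5 were called lower in JpA liver, and of 19 interferon genes 10, beside 31.1% of all genes called lower. Without JpA liver 2 these counts were 11 and 15. In that fit 62% of all genes were called in either direction, beside 56% with JpA liver 2.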

How the data were processed

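RNA-Seq counts of 65 libraries of *X. maculatus* skin and liver were analysed. Raw counts per NCBI gene model were deposited by the authors, who mapped reads with TopHat2 to genome version 5.0 and counted them with featureCounts. Tool versions and strand settings are not given in the sources used here, so reads of overlapping or antisense genes could not be told apart. All 27242 gene IDs matched the annotation. Library totals are given with the results.

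Pairs of libraries from 1 fish label were added together (4 pairs) if their chi-square per degree of freedom, taken over genes of 50 or more summed counts, was below 3. Counts were filtered with filterByExpr (minimum count 10), TMM-scaled and tested in edgeR 4.0.16 (glmQLFit, glmQLFTest; R 4.3.3), with Benjamini-Hochberg adjustment over all genes. The SE was the log2 fold change divided by the square root of F. Likeness used log2 CPM with a prior count of 2. DESeq2 1.42.0 was the alternative test. Python 3.11.15, pandas 2.3.3, numpy 2.4.6 and matplotlib 3.10.9 served for tables and plots. The pipeline was tested on simulated data. Nothing but fish labels says that samples are separate animals, so p-values measure the spread between these samples.

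The 4 genes, the gene lists and the tests were chosen with earlier results of these data known. The 4 genes were left out of the list counts of the skin strain comparisons, since that contrast chose them. The exception is the osteoclast list without JpB skins 11 and 12, where *siglec15* was kept. List counts outside the skin strain comparisons kept the 4 genes. From each list at most 4 called genes are named, by smallest adjusted p, and for likeness the 5 genes with the highest centred r. *colec12* and *stab1* in label-2016 were named after their values were seen. Many list symbols had no match, as for T cells, where 14 of 39 matched. Other alternatives were DESeq2 size factors, no filter, label year as covariate, fish labels summed or as a block, a replicate block, leaving out libraries, and a covariate for the set of fish labels. No sequences were used.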

Additional observations from a re-analysis of the deposited data

Results flagged for a closer look

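In 5 of 36 groups tested, 1 sample lay further from the rest than Dixon's limit at 95% allows; chance alone flags about 1 in 20 groups. Of these, 3 were JpA liver 2, at 44.1 CPM of *marco* (next highest JpA liver 3.94), 2.75 CPM of *cd8a* (next 1.20) and 32.7 CPM of *irf9* (next 8.62). That liver was also the highest in most leukocyte genes, and the part of those genes in these values was not tested.

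Both other cases were *cd8a* in JpB skin. JpB skin 3 had 23.5 CPM among the 9-month samples of label-2014, with 10.1 CPM next, and 3 other libraries carry its fish label. JpB skin 27 had 7.05 CPM among the label-2016 samples, with 5.11 CPM next. It lay below the JpA median all the same.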

How the results depend on the processing

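Directions held under most alternatives, and the exceptions follow. The cause was not tested for any of them. In skin, a fit on the label-2018 and label-2016 samples alone with label year as covariate, which changes samples and model together, gave *cd8a* -1.37 and 2570 genes called, beside 5093 over all years. Numbers do not pair the samples, since 1 of 18 shared numbers in skin and 0 of 4 in liver correlated best with their own number. With a replicate block, 3357 genes were called in skin and 87 in liver, beside 1488, and liver *cd8a* was -2.31 (adjusted p = 0.0708, edgeR). Liver *cd8a* was also no longer called with no filter (-1.93, adjusted p = 0.0560, edgeR) or within label-2018 (-1.39), where *irf9* turned to 0.22 and 4035 genes were called. DESeq2 kept it (-1.97, adjusted p = 0.00206).

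Leaving out single samples gave these log2 ranges: *siglec15* in skin of label-2018 -0.60 to 0.18, *marco* in skin of label-2016 -0.0011 to 0.22, *irf9* at 20 against 13 months -0.068 to 0.28, *siglec15* at 12 against 9 to 10 months -0.60 to 0.077, *irf9* in JpB skin of label-2018 against label-2016 -0.10 to 0.18, liver *cd8a* -2.29 to -1.64, liver *irf9* -0.58 to 0.048, JpA liver against skin *marco* -1.60 to 0.75 and *irf9* -0.82 to -0.052, and JpB liver against skin *irf9* -0.59 to -0.24. In skin of label-2016 only JpB samples were left out in turn, and at 12 against 9 to 10 months only 12-month samples. Those ranges leave the other group untried. The block of fish with both tissues gave *marco* -0.48. Without JpB skins 11 and 12, *siglec15* at 12 against 9 to 10 months was 0.30, and between JpB years *irf9* (0.54) and *siglec15* (1.37) were called. The share of all genes called in that fit between years is not given. With all JpB skins of these years in the fit, DESeq2 called *irf9* between years (0.46, adjusted p = 0.0355), where edgeR did not.

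DESeq2 called 4660 genes in skin of label-2018 (edgeR 2666), 1971 in label-2016 (785), 803 at 20 against 13 months (262), 1001 at 24 against 20 months (350, or 581 with no filter), 1940 at 12 against 9 to 10 months (559), 3073 in label-2018 against label-2016 (1943), 2074 by hour (420) and 3195 in liver (1488). At 12 against 9 to 10 months, 1849 genes were called without JpB skins 11 and 12, 1757 with fish labels summed and 1724 without JpB skin 3. With single samples left out, the count of genes called ran from 851 to 3531 in skin of label-2018, 172 to 474 in label-2016, 82 to 466 at 20 against 13 months, 60 to 291 at 24 against 20 months, 5 to 297 at 12 against 9 to 10 months, 614 to 1207 in label-2018 against label-2016, 180 to 1685 by hour and 238 to 2129 in liver. In label-2016 only JpB samples were left out in turn. At 24 against 20 months these were the 20-month samples, and at 12 against 9 to 10 months the 12-month samples. Those ranges leave the other group untried. Alternatives without JpB skin 3, without JpA livers 5 and 6 and with the set of fish labels, and list counts in skin without the 4 genes, were chosen after seeing the data. *siglec15* in liver rested on 0 to 11 counts a library.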
